A study of Rattus norvegicus with 5 samples.

Results

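The comparison set the hypertrophic zone (HZ) of the mandibular condylar cartilage (MCC) against femoral condylar cartilage (FCC). Its members are 2 of the 5 arrays of the series, 1 for HZ and 1 for FCC, and every probe set that is no control entered it, with no choice by measured values. Both arrays came from wild type Sprague-Dawley rats that were male and 5 weeks old. HZ cells were cut by laser-capture microdissection from 7 µm frozen sections of the condyle of the jaw joint, and FCC cells were cut in the same way from the middle and deep zones of the cartilage of the knee. The labels give lysates of 30 sections pooled for each array, and no number of animals behind a pool is stated. The other arrays are the fibrous (FZ), proliferative (PZ) and mature (MZ) zones of the MCC, which serve here to place the values.

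The MCC is a secondary cartilage that grows beneath a fibrous surface layer and gives way to bone at its base. Its chondrocytes mature in order from the proliferative layer to hypertrophic cells, which make collagen X, mineralize their matrix and lie next to the vessels, osteoclasts and marrow of the ossification front. FCC is a primary hyaline cartilage laid down from a limb model, and its chondrocytes make collagen II, aggrecan and the small proteins that hold the network together. The comparison therefore sets cells at the end of chondrocyte maturation in the jaw beside hyaline chondrocytes of a limb joint, and differences of zone, of joint and of the cells captured with each cannot be told apart.

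Each value is a log2 value relative to the median of its probe set over the 5 arrays, so that 0.00 marks an array at the median. Several arrays can share that value for a probe set. The values hold no expression level, no signal over background and no depth, and only the number of arrays limits the precision that can be stated. With 1 array a side there are no replicates, so differences are described and none is tested. Of 31099 probe sets, 57 controls were set aside and 31042 were compared, of which 20826 carry 1 gene symbol. The only internal error at hand is the spread between probe sets that share a gene, whose SD for HZ minus FCC had a median of 0.30 over the 4526 genes with several. The 18 hybridization controls, foreign transcripts spiked in before hybridization, had a mean of −0.03 in HZ and 0.50 in FCC, and equal controls would move every difference up by 0.52. Differences below are as deposited, relative to a median of 0.00 over all probe sets. Of the RNA controls, the 5′ probe set for beta-actin lay at −0.24 relative to the 3′ one in HZ and at 1.24 in FCC, while for GAPDH these were 0.27 in HZ and −0.21 in FCC. The part of the controls in any result was not tested.

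At a difference of at least 2, which is 4-fold, 523 probe sets (1.68%) were higher in HZ than in FCC and 578 (1.86%) were lower. If the hybridization controls are made equal, 1197 are higher and 372 lower, so that the side with more probe sets turns over. In a bulk sample fewer cells of a type and less RNA per cell cannot be told apart, which holds for all values that follow. The lower side reached further, with 120 probe sets lower in HZ by 4 or more and 63 by 5 or more, against 4 and 0 higher by these sizes. The whole range ran from −7.34 to 4.55, and 69.1% of the probe sets lay within 0.5 of 0.

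Among these probe sets FCC stood off the median of the 5 arrays more often than HZ did. That median is taken mostly over MCC zones, HZ among them, so by design it lies nearer to the MCC where the tissues differ. The probe sets were also picked by HZ minus FCC, which favours both arrays as extremes. Both limits hold for the ranks of HZ and FCC given below. Of the 578 probe sets lower in HZ, 380 were at least 1 off that median in FCC alone, 82 in HZ alone and 116 in both. Of the 523 higher in HZ, 243 were off it in FCC alone, 136 in HZ alone and 144 in both. HZ was the lowest of the 5 arrays for 350 of the 578 and the highest for 391 of the 523, while FCC was the highest for 522 and the lowest for 463. Over the higher probe sets the median value was 1.09 in HZ and −1.36 in FCC, with 0.71 in MZ, −0.13 in PZ and 0.00 in FZ. Over the lower ones it was −0.61 in HZ and 2.14 in FCC, with −0.06 in MZ.

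**Figure D1:**
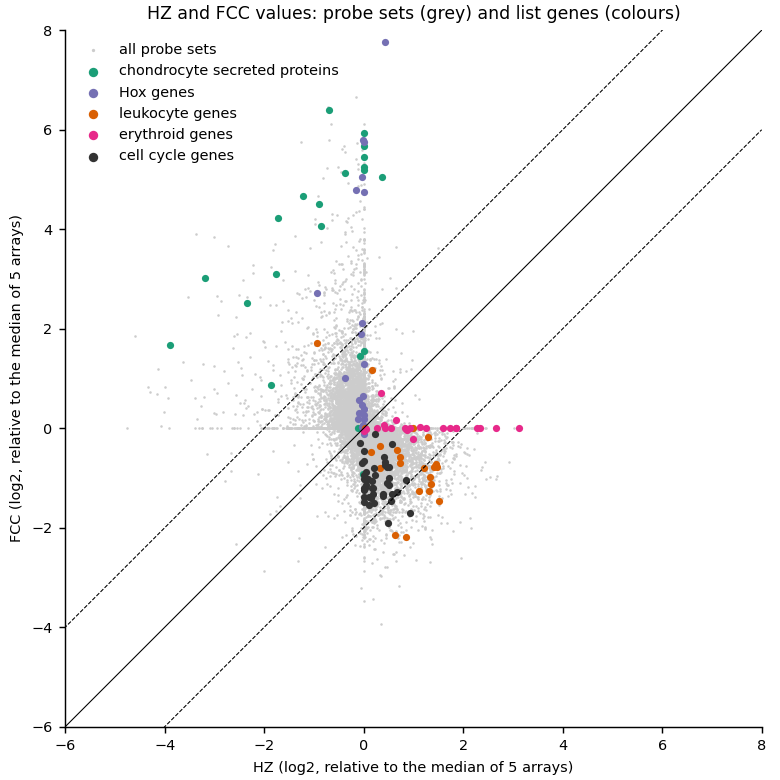
Each grey point is 1 of 31042 probe sets, with its HZ value on the horizontal axis and its FCC value on the vertical axis (log2, relative to the median of 5 arrays), and coloured points are the gene means of 5 lists. The solid line marks equal values and the dashed lines a difference of 2; most chondrocyte secreted proteins and several Hox genes lie far above the upper line, many at an HZ value near 0, and most leukocyte and erythroid genes lie to the lower right of the solid line.

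Genes were then read by name, with 1 probe set per gene. Hoxa9, a homeobox transcription factor of position along the body and limb, had the largest difference of all, −7.34 or 161-fold lower in HZ. Its values were 0.43 in HZ and 7.77 in FCC, with −0.63 in FZ, 0.00 in PZ and −0.64 in MZ, so FCC alone stood high. Meltf, a membrane protein that binds iron, stood at −0.72 in HZ and 6.47 in FCC (146-fold lower in HZ), and no zone of the MCC passed 0.00. Itgbl1, an integrin-like secreted protein, was at −3.00 in HZ and 3.84 in FCC, with 1.06 in FZ, 0.00 in PZ and −2.91 in MZ, so that both arrays left the median. Meg3, an imprinted noncoding RNA, was lower in HZ by both of its probe sets (−6.77 and −5.61). Capn6, a calpain that lacks protease activity and binds microtubules, was lowest of the 5 arrays in HZ at −3.52 and highest in FCC at 2.64. The 15 largest negative differences ran from −7.34 to −5.85, and FCC was the highest array for all 15. They also held Mia, Chad and Prelp, given with the matrix below, and Gdf10, given with the growth factors. Clec3a, Ccn6 and Scrg1 differed by −6.21, −5.95 and −5.88. Smoc1, a calcium-binding matrix protein, gave −6.11 and −1.89 by its probe sets. Agtr2, the type 2 angiotensin receptor, differed by −5.92 by 1 probe set and 0.00 by the other, and Creb5, a transcription factor of articular chondrocytes, by −5.85 to −2.58 over 5 probe sets.

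The 15 largest positive differences were smaller, from 3.31 to 4.28, and FCC was the lowest array for all 15. Styxl2, a phosphatase-like protein of striated muscle, led them with 0.35 in HZ and −3.93 in FCC (19.4-fold higher in HZ), with −1.18 in FZ, 0.00 in PZ and 0.59 in MZ, so FCC stood low and HZ near the median. Gal, the neuropeptide galanin, was at 1.05 in HZ and −2.66 in FCC, and at 1.10 in MZ. E2f2, a transcription factor of cell cycle entry, stood at 2.23 in HZ and −1.39 in FCC, and Bcl11a, a zinc finger factor of lymphoid cells that also silences fetal globin, at 2.92 and −0.67. Bcl11a stood further off the median in HZ than in FCC, and its other probe set gave a difference of 1.94. Cadm1, an adhesion molecule, was higher in HZ by 3.41 and 3.09. Lox, the enzyme that cross-links collagen, was higher by 3.31 and 1.63, with −2.97 and −1.48 in FCC and values between −0.32 and 0.35 over the MCC zones. Zswim6 was higher by 1.99 to 3.60 over its 3 probe sets, whereas the 4 probe sets of Ildr2 ran from −0.19 to 3.48.

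**Figure D2:**
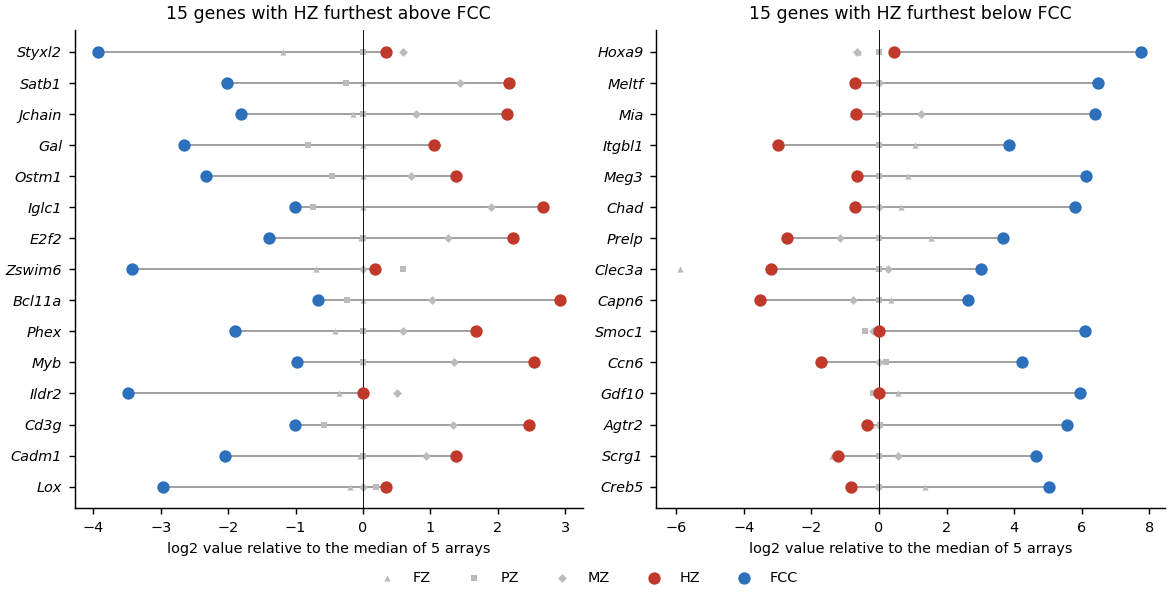
Values of the 15 genes furthest higher (left) and the 15 furthest lower (right) in HZ than in FCC, 1 probe set per gene, as log2 relative to the median of 5 arrays, with red points for HZ, blue points for FCC and grey symbols for FZ, PZ and MZ. FCC is the lowest array for all 15 genes on the left and the highest for all 15 on the right, where the HZ points lie between −3.52 and 0.43.

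Genes were also counted by role in 34 lists of 686 named genes, each gene as the mean of its probe sets, with a difference of at least 1 (2-fold) as the limit. Over all 14222 named genes, 1150 (8.09%) were higher in HZ at this limit and 855 (6.01%) were lower, and the median was 0.00. Where such a gene had several probe sets, all of them lay on 1 side of 0 for 222 of 256 higher genes and 148 of 167 lower genes. List counts below are to be read against these shares, and 38 genes stand in more than 1 list.

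**Figure D3:**
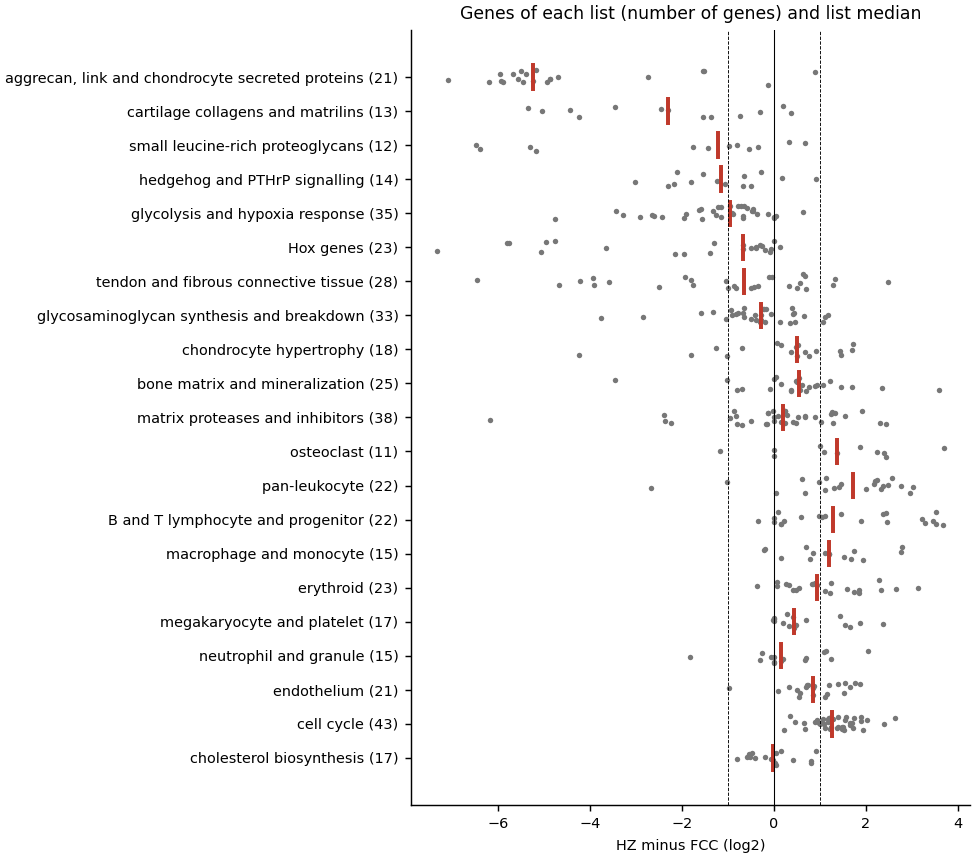
Difference of HZ minus FCC (log2) for each gene of 21 lists, 1 grey point per gene, with a red bar at the list median, the number of genes in brackets and dashed lines at −1 and 1. The secreted proteins of chondrocytes centre at −5.25 and the leukocyte genes at 1.73, while the genes of cholesterol biosynthesis centre at −0.01.

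Secreted proteins of the cartilage matrix were far lower in HZ. Of 21 genes of aggrecan, its link proteins and other chondrocyte secreted or marker proteins, 19 were lower and 0 higher, with a median of −5.25. The study names 13 of these genes from the same arrays, so the choice of these members and their direction are not independent of each other. Mia, a small secreted protein of chondrocytes, stood at −0.69 in HZ and 6.40 in FCC, with −0.81 in FZ, 0.00 in PZ and 1.24 in MZ. Cnmd (chondromodulin), which keeps vessels out of cartilage, was at 0.00 in HZ and 5.46 in FCC, and at 2.08 in MZ. Snorc, a membrane proteoglycan of chondrocytes, was at −0.38 in HZ and 5.13 in FCC, with −2.34 in FZ and 1.81 in MZ. For these genes FCC stood far above every MCC zone, and HZ lay below MZ. Ucma, a calcium-binding protein of the upper growth plate, stood at −3.90 in HZ, 1.67 in FCC and −0.36 in MZ, so that HZ alone was low. Acan, the core protein of aggrecan, was at −1.87 in HZ and 0.86 in FCC by the mean of 2 probe sets, which gave differences of −2.76 and −2.71. Hapln1, the link protein that ties aggrecan to hyaluronan, was at −2.35 in HZ and 2.51 in FCC, with −5.40 to −4.20 over its 3 probe sets. Mgp, an inhibitor of calcification, differed by −1.51. Vcan, the aggregating proteoglycan of looser connective tissue, was the only member above 0, at 0.89.

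Collagens of hyaline cartilage did not all follow. Of 13 cartilage collagens and matrilins, 9 were lower in HZ and 0 higher (median −2.29), and 3 of the 13 are named by the study. The chains of collagen IX, which sits on the surface of collagen II fibrils, were lower by 3.46 for Col9a1, 2.45 for Col9a2 and 2.29 for Col9a3 on the log2 scale. Col9a1 stood at −1.33 in HZ and 2.13 in FCC, with −4.53 in FZ, 0.00 in PZ and 0.66 in MZ, so HZ lay between FZ and the other zones. Matn3, a matrilin of growing cartilage, was at 0.00 in HZ and 4.44 in FCC. Matn2, a matrilin of looser tissue, was at −4.30 in HZ and 0.74 in FCC. Comp, which binds collagen and holds fibrils together, was at −2.63 in HZ and 1.60 in FCC, and Cilp2, a protein of the articular interterritorial matrix, at −2.23 and 3.12. Col2a1, the main collagen of cartilage, averaged −0.31, but its 3 probe sets gave 2.14, −1.10 and −1.97, and the sign of the mean turns with equal hybridization controls. FCC read −2.12 by the first of these probe sets and 0.85 and 1.55 by the others, while HZ read 0.02, −0.25 and −0.42, so no direction is given for this gene. Col11a1 and Col11a2 belong to the collagen that nucleates the fibrils. Col11a1 averaged 0.21, but its 3 probe sets disagreed in sign. Those lower in HZ gave −1.15 and −0.22, while the other stood at 0.695 in HZ and −1.30 in FCC. No direction is therefore given for Col11a1 either. Col11a2 was at −0.74 and stays below 0 with equal controls.

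Small leucine-rich proteoglycans bind and space collagen fibrils. Of 12, 6 were lower in HZ and 0 higher, with a median of −1.21. With equal hybridization controls 5 are lower, 1 higher and the median is −0.69. The study names 4 of the 12 from the same arrays, so their choice and direction are not independent. Chad, which binds collagen and chondrocyte integrins, stood at −0.70 in HZ and 5.79 in FCC, and Prelp at −2.73 in HZ and 3.67 in FCC. Fmod (fibromodulin) was at −4.12 in HZ and 1.19 in FCC, with 0.79 in FZ, 0.00 in PZ and −1.12 in MZ, so that HZ stood low as well. Dcn (decorin) and Lum (lumican), which are abundant in bone and fibrous tissue too, were at 0.68 and 0.33. Enzymes of glycosaminoglycan chains had 3 of 33 genes higher and 5 lower with a median of −0.29, or 4 and 3 with a median of 0.24 under equal hybridization controls. Among them Csgalnact1, which starts chondroitin sulfate chains, was lower by both probe sets (−3.99 and −3.55), at −0.59 in HZ and 3.17 in FCC. Has2, which makes hyaluronan, differed by −1.59. Exostosin Ext1, of the heparan sulfate polymerase, was at 1.18 in the other direction.

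Genes of chondrocyte hypertrophy, the label of the zone, had members on both sides. Col10a1, the collagen of hypertrophic chondrocytes, stood at 0.37 in HZ and 0.00 in FCC, with −2.73 in FZ, −1.61 in PZ and 0.62 in MZ. It was thus higher in HZ than in the superficial zones, but HZ exceeded FCC by 0.37 only. Mmp13, the collagenase of hypertrophic cells, was at 0.37 in HZ and −0.31 in FCC, and Ibsp (bone sialoprotein) at 0.27 and −0.50. Of 18 genes of the list, 4 were higher in HZ and 4 lower, with a median of 0.49, but with equal hybridization controls 10 are higher, 2 lower and the median is 1.02. As deposited, the higher ones were Panx3, a channel of late chondrocytes and osteoblasts (1.71), Spp1 or osteopontin (1.70), Alpl, the phosphatase that frees phosphate for mineral (1.46), and Mef2c, a transcription factor of hypertrophy (1.43). Panx3 stood at 1.24 in HZ and −0.47 in FCC, with 1.43 in MZ, and Alpl at 0.81 and −0.65, with 1.47 in MZ, so neither was highest in HZ. The lower ones were Scin, an actin-severing protein (−4.25), Ihh (−1.81), Vegfa (−2.38 and −0.12 by its 2 probe sets) and Ankh, a transporter of pyrophosphate (−1.03). Sox9 and Runx2, transcription factors of chondrocytes and of hypertrophy, are not analysed here.

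Genes of bone matrix and mineralization shared 7 members with that list, and 6 of 25 were higher in HZ and 2 lower (median 0.54), or 15 and 1 with equal hybridization controls (median 1.07). Phex, a peptidase of osteoblasts and osteocytes that limits phosphate loss, stood at 1.68 in HZ and −1.90 in FCC, a difference of 3.58. Dlx3, a homeobox factor of osteoblasts and teeth, was at 1.21 in HZ and −1.13 in FCC. Mepe, a phosphoprotein of osteocytes, differed by 1.22, while Bglap (osteocalcin), Dmp1 and Col1a1 were at 0.93, 0.60 and 0.70. Tnfrsf11b (osteoprotegerin), the decoy receptor that holds back osteoclasts, went the other way with −0.63 in HZ and 2.82 in FCC. Its ligand Tnfsf11 (RANKL) was at 0.05 and the receptor Tnfrsf11a at 0.01.

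**Figure D4:**
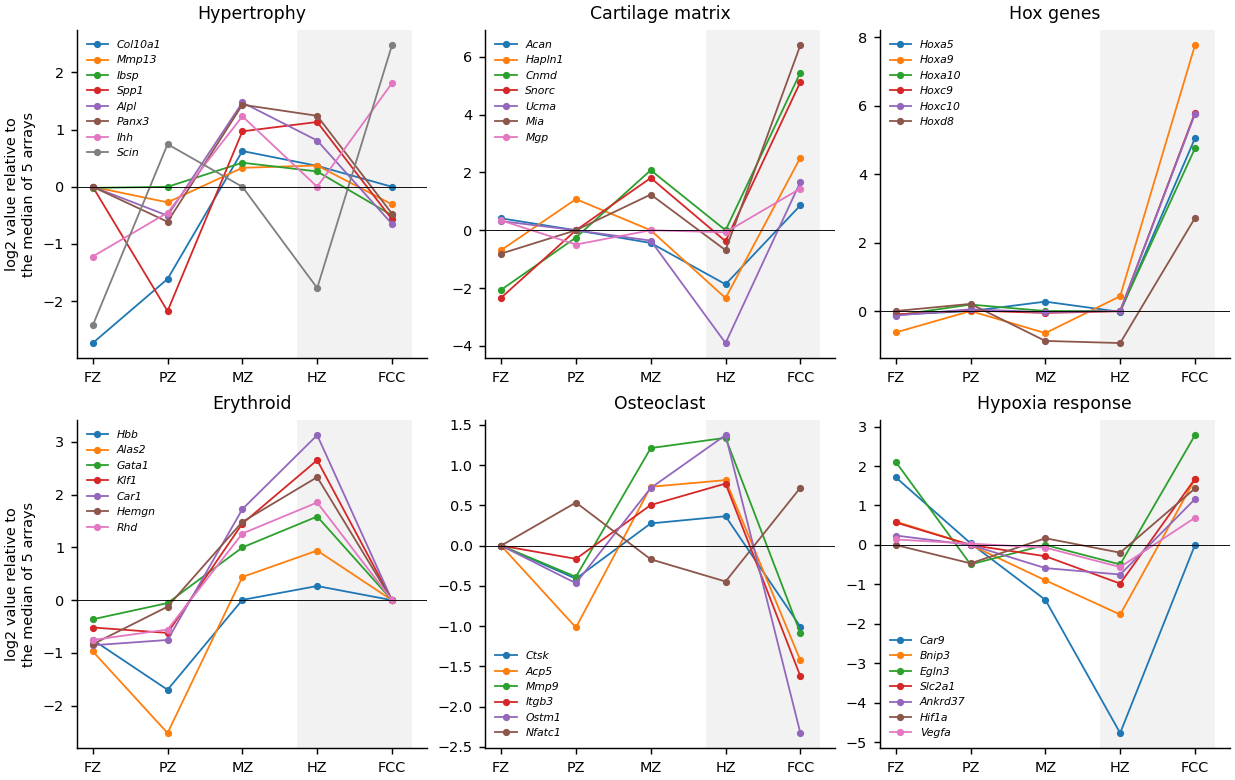
Values of named genes in the 5 arrays in 6 panels (log2, relative to the median of 5 arrays, gene means where a gene has several probe sets), with HZ and FCC on grey. Hox genes stand apart in FCC alone, erythroid genes are highest in HZ with FCC at 0.00, and Col10a1 differs little between HZ and FCC.

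Genes of hedgehog signalling were lower in HZ than in FCC. In the growth plate Ihh from prehypertrophic cells acts on neighbouring chondrocytes through Ptch1 and Smo to the Gli factors, and through Pthlh it delays hypertrophy. Of 14 genes of hedgehog and PTHrP signalling, 8 were lower and 0 higher, with a median of −1.15. With equal hybridization controls 6 are lower, 1 higher and the median is −0.62. The ligand Ihh was at 0.00 in HZ and 1.81 in FCC, with −1.22 in FZ, −0.45 in PZ and 1.23 in MZ. Of the surface proteins, the co-receptors Boc and Cdon differed by −2.31 and −1.06, and the decoy Hhip by −2.17. Smo, which passes the signal inward, gave −2.48 and 0.00 by its 2 probe sets. Gli1, both a factor and a target of the pathway, was at −2.24 in HZ and 0.79 in FCC, with 0.85 in FZ, 0.00 in PZ and −0.02 in MZ, so HZ alone stood low. Gli2 was at −0.47 in HZ and 1.63 in FCC. Pth1r, the receptor of PTHrP, was at 0.92 in the other direction, from probe sets at 1.62 and 0.22. Ptch1 and Pthlh are not analysed here.

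Other growth factor families had genes on both sides. Of 46 genes of TGF-beta and BMP signalling, 5 were higher and 10 lower (median −0.13), but with equal hybridization controls 13 are higher and 5 lower (median 0.39). Gdf10, a BMP-related ligand, was at 0.00 in HZ and 5.94 in FCC, and the BMP antagonist Chrdl2 at −2.57 in HZ and 2.23 in FCC. In the other direction the ligands Bmp3 and Bmp4 were higher in HZ by 2.84 and 1.64, and Id3, a target of BMP signals, by 2.06. Of 35 Wnt genes, 5 were higher and 4 lower (median −0.07), or 8 and 2 with equal controls (median 0.46), with the secreted inhibitors Wif1 and Sfrp5 at −1.47 and −1.33 and the co-receptor Lrp4 at 2.18. Of 19 FGF genes, 3 were higher and 2 lower, or 5 and 2 with equal controls, among them Spry1 and Dusp6, feedback inhibitors of the pathway, at 2.06 and 1.84, and the intracellular Fgf13 at −4.03. In the insulin-like growth factor system 2 of 18 were higher and 4 lower (median −0.49), or 3 and 3 with equal controls (median 0.04). Igfbp3, a binding protein, was at 0.81 in HZ and −1.54 in FCC, and the imprinted RNA H19 at −3.00 in HZ and 0.79 in FCC. Igf2 had 1 of 4 probe sets at −5.48 and the others between −0.05 and 0.00, so its mean of −1.38 rests on that probe set.

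Matrix proteases had members on both sides. Of 38 proteases and inhibitors, 9 were higher in HZ and 4 lower (median 0.19), or 14 and 4 with equal hybridization controls (median 0.72). Mmp9, the gelatinase of osteoclasts and leukocytes, was higher by 2.98 and 1.87, and Adamts7, which cleaves Comp, by 2.30. Mmp14, a membrane collagenase, gave 2.38 and 0.69, and Adamts5, an aggrecanase, 1.66 and 0.81. Mmp3 (stromelysin) was at 0.00 in HZ and 2.37 in FCC, and Timp4, an inhibitor, at 0.00 and 2.24. Of 27 integrins and other matrix receptors, 3 were higher and 3 lower, but 10 and 2 with equal controls. Cd44, the receptor of hyaluronan, differed by 1.90 and 1.54, and Sdc4, a heparan sulfate proteoglycan of chondrocytes, by −2.09.

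Genes of fibrous connective tissue had members on both sides. Of 28, 11 were lower in HZ and 3 higher, with a median of −0.66, or 10 lower and 8 higher with equal hybridization controls (median −0.14), and the study names 11 of the 28. Angptl1, an angiopoietin-like secreted protein, stood at −4.60 in HZ and 1.86 in FCC, with 1.60 in FZ, 0.00 in PZ and −3.48 in MZ. Col14a1, which sits on collagen fibrils, was at −2.97 in HZ and 1.69 in FCC, with 2.28 in FZ. For both genes HZ and MZ were low, and FCC stood near FZ. Fap, a surface protease of fibroblasts, was at 0.00 in HZ and 3.60 in FCC. Tnc (tenascin C) and Col5a1 were higher in HZ by 1.28 and 1.32.

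Genes of the hypoxia response and glycolysis were lower in HZ than in FCC. Cartilage has no vessels, and chondrocytes depend on glycolysis and on the factor HIF-1, which binds short sites in the DNA of its targets when oxygen is low. Of 35 genes, 17 were lower and 0 higher, with a median of −0.95, and with equal hybridization controls 12 are lower, 1 higher and the median is −0.42. Car9, a carbonic anhydrase that is a target of HIF-1, stood at −4.77 in HZ and 0.00 in FCC, with 1.71 in FZ, 0.04 in PZ and −1.39 in MZ, with FCC itself the median array. Bnip3, a mitochondrial protein of mitophagy, was at −1.76 in HZ and 1.66 in FCC, with 0.59 in FZ, 0.00 in PZ and −0.90 in MZ. Slc2a1, the glucose transporter GLUT1, was at −0.98 in HZ and 1.68 in FCC, with 0.57 in FZ, 0.00 in PZ and −0.29 in MZ. Slc2a3, of the same family, averaged 0.63 in the other direction, from probe sets at 1.25 and 0.00. Egln3, a prolyl hydroxylase that marks HIF for breakdown, was at −0.49 in HZ and 2.78 in FCC, with 2.11 in FZ. Ankrd37, a small ankyrin repeat protein, was at −0.75 in HZ and 1.16 in FCC. HZ was the lowest of the 5 arrays for 19 of the 35 genes and FCC the highest for 19. Slc16a3, the lactate exporter, differed by −2.92 and the aldolase Aldoc by −2.62. Enzymes at the core of glycolysis differed less, with −0.89 for Ldha, −0.67 for Eno1, −0.59 for Aldoa and −0.45 for Pgk1, and Pgk1 turns to a positive sign with equal controls. Hif1a itself was at −0.20 in HZ and 1.43 in FCC, whereas Epas1, which encodes HIF-2 alpha, was at 0.06 in both.

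Promoters of 3 of these genes are shown because they carry the letters that HIF-1 binds and all 3 stood lower in HZ than in FCC. The 250 bases before the RefSeq start (build GRCr8) are printed 5′ to 3′ along the gene, with ACGTG or GCGTG on either strand in capitals. Bnip3 is at chr1:203154963-203155212 (- strand), Slc2a1 at chr5:138002272-138002521 (+ strand) and Ankrd37 at chr16:53001257-53001506 (+ strand).
Bnip3: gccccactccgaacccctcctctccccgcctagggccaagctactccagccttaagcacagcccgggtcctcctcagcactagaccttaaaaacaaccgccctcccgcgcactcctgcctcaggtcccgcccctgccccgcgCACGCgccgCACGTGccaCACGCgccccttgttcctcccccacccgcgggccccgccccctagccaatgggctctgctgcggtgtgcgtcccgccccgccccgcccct
Slc2a1: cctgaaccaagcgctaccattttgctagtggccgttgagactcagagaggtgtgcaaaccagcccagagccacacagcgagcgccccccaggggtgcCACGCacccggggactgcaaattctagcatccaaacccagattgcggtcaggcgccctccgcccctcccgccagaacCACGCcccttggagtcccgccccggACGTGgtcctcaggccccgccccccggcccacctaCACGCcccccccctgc
Ankrd37: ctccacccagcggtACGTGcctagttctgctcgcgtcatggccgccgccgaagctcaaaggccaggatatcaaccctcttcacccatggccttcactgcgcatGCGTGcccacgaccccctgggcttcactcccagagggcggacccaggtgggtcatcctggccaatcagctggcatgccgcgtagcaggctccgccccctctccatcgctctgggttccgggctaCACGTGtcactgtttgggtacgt

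Each of these promoters holds 4 matches. In Bnip3 and Ankrd37 a match on each strand overlaps in CACGTG, which begins 99 bases before the start in Bnip3 and 23 before it in Ankrd37. The same letters occur in 37.9% of all 27457 promoters of this length in the table, in 10 of 16 promoters of the 17 lower genes of the list, and in 8 of 15 promoters of its 18 other genes. A match is a description of the letters, not of a bound site.

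**Figure D5:**
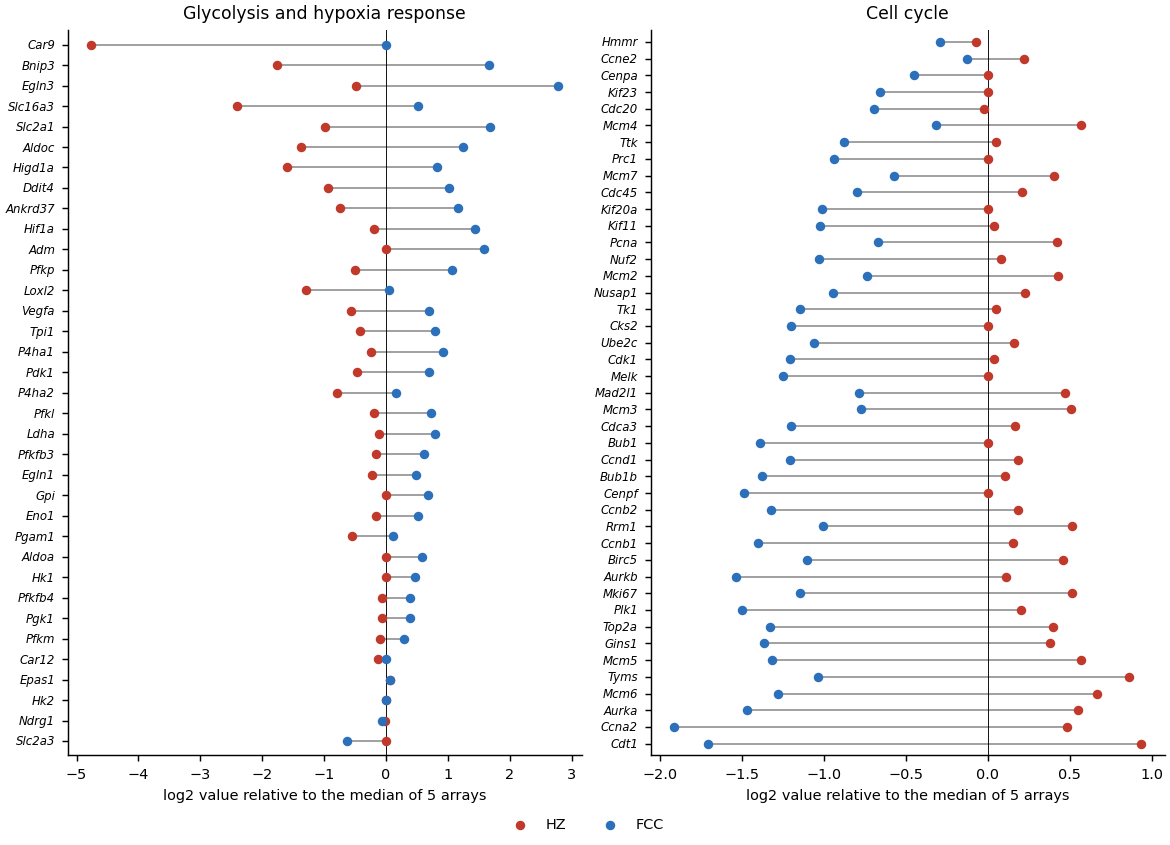
HZ (red) and FCC (blue) values of each gene of the glycolysis and hypoxia list (left, 35 genes) and of the cell cycle list (right, 43 genes), as log2 relative to the median of 5 arrays, ordered by the difference. HZ lies left of FCC for 32 genes on the left and right of FCC for all 43 on the right.

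Positional genes stood apart in FCC. Hox genes give cells of the trunk and limbs their position, while most of the jaw skeleton comes from neural crest that lacks Hox activity. Of 23 Hox genes, 11 were lower in HZ and 0 higher, with a median of −0.67 (−0.15 with equal hybridization controls). Hoxc9 was at −5.82 and −5.78 by its 2 probe sets, Hoxc10 at −5.76, Hoxa5 at −5.07, Hoxc5 at −4.96 and Hoxa10 at −4.75. Their MCC values were flat, with Hoxa10 at 0.00 in HZ and 4.75 in FCC, and −0.13 in FZ, 0.19 in PZ and 0.00 in MZ. FCC was the highest of the 5 arrays for 18 of the 23. Of 14 genes of limb patterning, 4 were lower and 0 higher, and with equal controls 4 are lower and 3 higher. Tbx4, the T-box factor of the hind limb, was at 0.00 in HZ and 2.70 in FCC, and Tbx18 at 0.00 and 3.95. Meis1 and Meis2, partners of Hox proteins, differed by −3.56 and −3.64. Pitx1, which also marks the hind limb but is used in the jaw too, was at −0.24, which turns positive with equal controls. Tbx5, of the fore limb, read 0.00 in every array, so no difference or lack of one can be read from it. Of 20 genes of craniofacial patterning, 4 were higher and 1 lower. Dlx1, a homeobox factor of the pharyngeal arches, was at 0.00 in HZ and −2.88 in FCC, and Pax9 differed by 1.02. Barx1, a homeobox factor of jaw mesenchyme and joints, was at −1.19.

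Genes of osteoclasts were higher in HZ. Of 11, 8 were higher and 1 lower, with a median of 1.37. Ostm1, a partner of the chloride channel of the ruffled border, stood at 1.37 in HZ and −2.33 in FCC, with 0.00 in FZ, −0.47 in PZ and 0.72 in MZ. Itgb3, the integrin chain by which osteoclasts hold bone, was at 0.77 in HZ and −1.62 in FCC, and Acp5, their acid phosphatase, at 0.81 and −1.42. Ctsk (cathepsin K) differed by 1.37 and Car2, which supplies acid, by 2.08 and 1.65. Calcr gave 2.45 and −0.26 by its probe sets, and Clcn7, the channel that Ostm1 partners, stood at 0.00 in HZ and FCC. For Ostm1, Itgb3 and Acp5 the larger step off the median was in FCC. Nfatc1, the transcription factor of osteoclast formation, was lower in HZ, at −0.45 in HZ and 0.72 in FCC.

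Genes of white blood cells were higher in HZ as well. Of 22 genes of all leukocytes, 16 were higher and 2 lower (median 1.73), and the list median was 0.91 in HZ and −0.74 in FCC, with 0.00 in FZ, −0.40 in PZ and 0.46 in MZ. Coro1a, which shapes actin in leukocytes, differed by 3.03, Lcp1 (L-plastin) by 2.96 and Tyrobp, an adaptor of myeloid receptors, by 2.57. Ptprc (CD45), the defining antigen, gave 2.60 and 0.24 by its 2 probe sets. The 2 exceptions, Lsp1 at −2.67 and Plcg2 at −1.02, were higher in FCC. Of 15 macrophage genes, 9 were higher and 0 lower (median 1.20), with Cd68 at 1.28 in HZ and −1.52 in FCC and Csf1r at 1.31 and −1.44. Of 22 genes of lymphocytes and progenitors, 13 were higher and 0 lower (median 1.28). Cd3g, a chain of the T cell receptor complex, stood at 2.45 in HZ and −1.01 in FCC, with 0.00 in FZ, −0.57 in PZ and 1.34 in MZ. Other T cell genes of the list differed less, with Cd3d at 0.98, Cd2 at 0.16 and Cd4 at 0.00. Cd3e gave 0.29 and −0.003 by its probe sets, and Zap70 went the other way with −0.43 and −0.28. Cd79b of B cells was at 0.21. Iglc1, an immunoglobulin light chain, was at 2.66 in HZ and −1.01 in FCC, with 1.90 in MZ. Ms4a1 (CD20) of B cells was at 2.10 in HZ and −1.19 in FCC, and Myb, a factor of blood cell precursors, at 2.54 and −0.98. Cd3g, Iglc1, Ms4a1 and Myb were highest in HZ, next in MZ and lowest in FCC. Of 15 neutrophil genes, 4 were higher and 1 lower (median 0.16), or 6 and 1 with equal controls, with S100a8 and S100a9, abundant in neutrophils, at 1.24 and 1.09 and the defensin Np4 at −1.83.

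Genes of red cells and their precursors formed another group, in which FCC was often the median array. Of 23 erythroid genes, 11 were higher in HZ and 0 lower (median 0.94), or 17 and 0 with equal hybridization controls (median 1.47), and HZ was the highest of the 5 arrays for 20. The study names 4 of the 23. Klf1, the Krüppel-like factor that switches on adult globin, stood at 2.65 in HZ and 0.00 in FCC, with −0.52 in FZ, −0.62 in PZ and 1.45 in MZ. Car1, which red cells use to handle carbon dioxide, was at 3.13 in HZ and 0.00 in FCC, and Rhd, a blood group antigen of the red cell membrane, at 1.85 and 0.00. Hemgn, a nuclear protein of blood precursors, was at 2.33 in HZ and 0.00 in FCC, and Gata1, the master factor of red cells, at 1.59 and 0.00. Differences under 1 were found for the globin Hbb (0.27) and for Alas2, which starts the making of haem in red cells (0.94). Epor, the erythropoietin receptor, averaged 0.32, from probe sets at 1.26, 0.00 and −0.29. Slc4a1, the anion exchanger, gave 3.03 and 0.68 by its 2 probe sets. Of 17 genes of megakaryocytes and platelets, 5 were higher and 0 lower (median 0.44), with Plek at 2.36, Nfe2 at 1.88 and Pf4 at 1.66, and 15 of the 17 were lower in HZ than in MZ.

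Promoters of Klf1 and Rhd are shown because both genes were highest in HZ, with FCC at 0.00, and both carry the letters bound by GATA factors. The 250 bases before the RefSeq start (GRCr8) are given as above, with AGATAA or AGATAG and likewise TGATAA or TGATAG on either strand in capitals, Klf1 at chr19:40158652-40158901 (- strand) and Rhd at chr5:152370950-152371199 (+ strand).
Klf1: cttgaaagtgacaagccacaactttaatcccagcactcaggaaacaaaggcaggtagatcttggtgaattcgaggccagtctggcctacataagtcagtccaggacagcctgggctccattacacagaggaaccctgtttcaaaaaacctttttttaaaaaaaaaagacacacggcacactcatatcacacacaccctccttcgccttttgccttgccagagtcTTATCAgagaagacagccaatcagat
Rhd: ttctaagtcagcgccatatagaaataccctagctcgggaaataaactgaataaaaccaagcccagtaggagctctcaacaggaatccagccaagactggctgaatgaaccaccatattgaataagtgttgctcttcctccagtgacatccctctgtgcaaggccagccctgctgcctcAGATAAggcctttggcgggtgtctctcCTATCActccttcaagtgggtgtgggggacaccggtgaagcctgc

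The match in Klf1 begins 26 bases before the start, and those in Rhd begin 72 and 45 bases before it. These letters occur in 26.7% of all promoters of the table, in 4 of 7 promoters of the 11 higher erythroid genes and in 7 of 11 promoters of the 12 others.

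Endothelial genes were higher in HZ too. Of 21, 9 were higher and 0 lower, with a median of 0.84, and with equal hybridization controls 18 are higher (median 1.36). Stab1, a scavenger receptor of sinusoids, was at 1.14 in HZ and −0.72 in FCC, Nos3, the nitric oxide synthase of endothelium, at 0.75 and −1.01, and Cldn5, a tight junction protein, at 1.42 and −0.11. The defining genes Pecam1 and Kdr were at 0.57 and 0.55. Genes of smooth muscle, adipocytes and skeletal muscle had medians of −0.03, −0.27 and −0.05, which become 0.50, 0.25 and 0.48 with equal hybridization controls. Single members stood apart, among them Cfd (adipsin), also made by other cells, at 1.74 in HZ and −1.24 in FCC, and Tnni2, a troponin of fast muscle also found in cartilage, at −0.06 in HZ and 4.89 in FCC. As the values hold no level, whether a marker of blood, bone or vessels was near background in FCC cannot be read from them.

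Genes of the cell cycle were higher in HZ without exception in sign. Of 43, 34 were higher by at least 1 and 0 lower (median 1.25), and all 43 stood higher in HZ than in FCC. The list median was 0.19 in HZ and −1.10 in FCC, with 0.05 in FZ, −0.12 in PZ and 0.00 in MZ, so FCC stood low and the 4 MCC zones lay close together. FCC was the lowest of the 5 arrays for 40 of the 43. Cdt1, which licenses DNA replication, stood at 0.94 in HZ and −1.71 in FCC, with −0.24 in FZ, 0.00 in PZ and 0.09 in MZ. Ccna2 (cyclin A2) was at 0.48 in HZ and −1.91 in FCC. Mki67, the proliferation antigen, was at 0.51 in HZ and −1.14 in FCC, with 0.00 in FZ, PZ and MZ, and Top2a, a topoisomerase of dividing cells, gave 1.80 and 1.64. HZ was the highest array for 22 of the 43 genes. The leukocyte list median was also highest in HZ (0.91) and lowest in FCC (−0.74), and the part of captured blood or marrow cells in the cell cycle, osteoclast and bone genes was not tested.

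Of 17 genes of cholesterol biosynthesis, 0 were higher and 0 lower by at least 1, with a median of −0.01 and members from Sqle at −0.79 to Mvd at 0.91, and with equal hybridization controls 3 are higher and the median is 0.51. Of 19 transcription factors of chondrocytes, 3 were higher and 5 lower (median −0.60), or 4 and 3 with equal hybridization controls (median −0.07). Npas2, a clock factor, was at −3.93 in HZ and 0.61 in FCC, and Foxa2, a factor of late chondrocytes, at −1.37 and 0.17, while Sox6, a partner of Sox9, was at −0.27, which turns positive with equal controls. The carbonic anhydrases ran from Car9 at −4.77 to Car1 at 3.13, with 3 of 14 higher and 3 lower. Of 7 genes often used as references, 2 were higher, Gusb at 1.60 and B2m at 1.07, and the others lay between −0.19 and 0.45.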

How the data were processed

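RNA from laser-captured cells went through 2 rounds of linear amplification before hybridization to Affymetrix rat arrays, 1 per group. The authors made the deposited log2 values with RMA (quantile normalization, log2) and set each probe set relative to its median across arrays. Background correction under MAS5 is described too, and no version is given for MAS5 or RMA. The labels give 30 pooled sections for every group, whereas the methods give 60 for FZ. The study's filter on the dimmest 20% of probe sets was left out, as it rests on levels.

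HZ minus FCC was computed in Python 3.11.15 (numpy 2.4.6; pandas 2.3.3), with limits of 2 for probe sets and 1 for gene means. The functions were tested on simulated data. Symbols came from the platform annotation, updated through RefSeq. Of the probe sets compared, 436 carry several symbols and 9780 are not listed, 6 of which were named from the study's tables. Genes named are the 15 largest differences each way, genes the study names and list members, defining ones and those with large differences. The members and lists were chosen with earlier results of these data known. Alternatives were other scalings, limits and probe sets. Genes without a probe set under their name are not analysed here.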

Additional observations from a re-analysis of the deposited data

How the results depend on the processing

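No paired analysis was possible because each group has 1 array, and for the same reason no array could be left out. The 523 higher and 578 lower probe sets become 1197 and 372 with equal hybridization controls, 1328 and 1060 at a limit of 1.4, 2457 and 1772 at 1, 63 and 270 at 3, and 215 and 315 with 1 value per gene, where fewer items are counted. Under equal Cre controls alone they are 717 and 494, and 490 and 555 without probe sets that can match several transcripts. Which side has more probe sets thus depends on the scaling and the limit. Of 34 list medians, 12 changed sign with equal hybridization controls, all between −0.49 and 0. That scaling adds 0.52 to every difference, so the 9 medians of at least 1 in size could not change sign by it. None of the 15 largest gene differences on either side changed sign under the alternatives run for them, but most could not have done so. A shift of 0.52 cannot turn differences of this size, and centring on the median left them as they were. The mean over probe sets can alter only genes with several, which were 7 of the higher and 4 of the lower ones. By the probe set with the largest difference, the median moved by more than 0.30 for 5 lists, to 2.08 for osteoclast, 1.26 for erythroid, 2.18 for leukocyte, −1.30 for Hox and −1.36 for glycolysis and hypoxia genes.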

Other observations

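Several genes that the study names for FCC or HZ show what a choice of probe set decides. Robo2, an axon guidance receptor, was higher in HZ by 3.15, 2.33 and 0.75 over 3 probe sets. Tes, a focal adhesion protein, gave 3.21, 1.88 and −0.04, and Drd4, a dopamine receptor, gave 2.59, 0.23 and −0.32. The proteases Ctse and Ctsz differed by 3.10 and 3.06 from 1 probe set each, so no agreement between probe sets can be read for them. Ctsz stood at 1.52 in HZ and −1.54 in FCC. Ptgds, a prostaglandin synthase, differed by −5.67. Serpinf1, an inhibitor of vessel growth, was at 0.11 in HZ and −1.66 in FCC.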
